A study of Mus musculus with 6 samples.

Results

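Microtubule motors and the tubulins they walk on were examined in 6 RNA-seq libraries of differentiated C2C12 cells. The members were chosen by gene name and comprise the numbered kinesins (Kif and Kifc), the kinesin light chains (Klc), the chains of cytoplasmic dynein 1 and 2 (Dync) and the numbered alpha, beta and gamma tubulins (Tuba, Tubb, Tubg). This rule matched 72 of the 55420 rows of the deposited table, each name once. They are 42 kinesins, 4 kinesin light chains, 9 dynein chains and 17 tubulins. Of these, 51 reached a mean level of 1 FPKM in either genotype and were tested. FPKM is a level per kilobase of transcript and per size of the library, so levels can be compared between genes. The other 21 stayed below it, with a highest value of 1.23 FPKM in any library.

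C2C12 is a mouse myoblast line whose cells leave the cell cycle and fuse into multinucleated myotubes when serum is lowered. All 6 libraries come from day 4 of differentiation in 2% horse serum, and the cells had been grown in 10% fetal bovine serum before. The 3 control libraries are labelled WT, and the other 3 are labelled as a knockout (KO) of FHL3, a muscle protein built of LIM domains. The labels name no clone, guide or separate culture, so a clone and the genotype cannot be told apart, and the spread behind each p-value is that of these libraries, which may be technical.

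Kinesins are ATP-driven motors, most of which walk towards the plus ends of microtubules, while cytoplasmic dynein walks towards the minus ends. A group of mitotic kinesins builds the spindle and drives cytokinesis and is made mainly in dividing cells. Transport kinesins carry vesicles, mitochondria and other cargo, both in dividing cells and in cells that no longer divide. In muscle the kinesin-1 heavy chain Kif5b, its light chains and dynein space the nuclei along the myotube, and alpha and beta tubulin form the longitudinal microtubule array that these motors use.

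Fhl3, the targeted gene, stood at 27.8, 30.0 and 33.7 FPKM in WT replicates 1 to 3. The libraries labelled FHL3 KO held 57.2, 53.5 and 58.9 FPKM. Its mRNA was therefore higher in every library labelled FHL3 KO, by 0.87 on the log2(FPKM + 1) scale (SE 0.09, limma adjusted p = 0.000547), which goes against a label read as loss of the transcript. All directions below set the libraries labelled FHL3 KO, for short FHL3 KO, against WT.

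The FPKM values of a library summed to between 425080 and 473477 in WT and between 477708 and 494176 in FHL3 KO. The read depth is unknown. Over all 12528 genes tested, 40.8% were called at a limma adjusted p of 0.05, 19.7% as higher and 21.2% as lower. Although the cells are labelled myoblasts, the 10 myotube markers were present in all libraries, with a summed level of 4426 to 4943 FPKM in WT and 10759.5 to 11261 FPKM in FHL3 KO, and 8 of them rose. The 6 markers of undifferentiated myoblasts summed to 54.9 to 63.6 FPKM in WT and 39.8 to 43.6 FPKM in FHL3 KO, and of the 5 tested 2 rose (Id1 and Id3) and 2 fell (Myf5 and Cd34). The 8 fibroblast markers summed to 560 to 627 and 288 to 325 FPKM, with 1 of 6 tested higher, 3 lower and Thy1 listed at 0. Liver markers summed to 85.0 FPKM in WT replicate 1 and to at most 0.0220 FPKM in the other 5 libraries. In bulk RNA, fewer cells of a type and less RNA per cell cannot be told apart.

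The promoters of 5 kinesins are shown first, because the promoters of many mitotic genes are known to share a pair of elements. These are the CHR (cell cycle homology region, TTTGAA or TTCAAA) and the CCAAT box (CCAAT or ATTGG), both searched here on both strands and marked in capitals. The 2 motifs can overlap by at most 1 base. The sequences are the 250 bases before the RefSeq transcript start in GRCm38.p6, on the strand of the gene. Kif11 (chr19:37376132-37376381, plus strand) and Kif20b (chr19:34922108-34922357, plus strand) are mitotic kinesins that fell, and Kif22 (chr7:127042421-127042670, minus strand) is the mitotic kinesin that rose. Kif3a (chr11:53567119-53567368, plus strand) and Kif3b (chr2:153291166-153291415, plus strand) encode the motor pair of kinesin-2, and both fell.
Kif11: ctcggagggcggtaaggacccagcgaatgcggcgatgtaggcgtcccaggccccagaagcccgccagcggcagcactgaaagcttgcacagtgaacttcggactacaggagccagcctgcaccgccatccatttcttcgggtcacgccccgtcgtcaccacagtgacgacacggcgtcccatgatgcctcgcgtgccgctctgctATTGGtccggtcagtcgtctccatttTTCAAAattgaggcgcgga
Kif22: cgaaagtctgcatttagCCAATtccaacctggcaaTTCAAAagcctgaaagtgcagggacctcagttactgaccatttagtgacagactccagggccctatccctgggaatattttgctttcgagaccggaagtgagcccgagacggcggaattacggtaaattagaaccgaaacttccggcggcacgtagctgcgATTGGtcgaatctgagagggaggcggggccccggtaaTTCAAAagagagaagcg
Kif20b: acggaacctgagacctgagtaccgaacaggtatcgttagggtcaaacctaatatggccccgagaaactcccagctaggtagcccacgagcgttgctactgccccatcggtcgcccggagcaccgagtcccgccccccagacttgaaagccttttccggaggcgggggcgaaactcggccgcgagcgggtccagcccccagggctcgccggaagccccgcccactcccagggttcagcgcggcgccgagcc
Kif3a: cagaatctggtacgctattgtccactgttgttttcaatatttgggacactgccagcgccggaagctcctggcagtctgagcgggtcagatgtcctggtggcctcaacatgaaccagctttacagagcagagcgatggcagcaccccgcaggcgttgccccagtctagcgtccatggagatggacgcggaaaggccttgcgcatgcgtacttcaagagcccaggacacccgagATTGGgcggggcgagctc
Kif3b: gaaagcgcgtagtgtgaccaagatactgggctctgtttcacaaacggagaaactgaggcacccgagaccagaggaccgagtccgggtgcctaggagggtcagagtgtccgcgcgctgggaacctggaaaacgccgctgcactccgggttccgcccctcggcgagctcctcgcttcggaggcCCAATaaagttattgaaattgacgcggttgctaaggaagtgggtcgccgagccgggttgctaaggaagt

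Kif11 held a CHR 19 bases and a CCAAT box 45 bases before the start. Kif22 held a CHR 17 and a CCAAT box 54 bases before it, and a second copy of each at 215 and 233 bases. Kif20b held neither. A mitotic kinesin that fell and the one that rose thus carried the same pair of elements near the start, and another that fell carried none. The promoter table matched 54 of the 72 members. A CHR was present for 5 of 12 mitotic kinesins (41.67%) and 1 of 10 transport kinesins (10%), against 18.26% of all 27025 genes with windows of this length, each gene counted once over its windows as for the members (15.98% of the 32817 windows). A CCAAT box was present for 8 of 12 mitotic kinesins (66.67%) and 3 of 10 transport kinesins (30%), against 37.49% of all genes (33.83% of windows). The windows that held the CHR of Kif14, Kif2c and Kif1a lie inside the gene models, past the outer start of each gene. The other window of Kif1a, at the outer start, held no CHR. The CCAAT box counted for Kif14 lies in the same inner window. The window of Kif4, with its CCAAT boxes, also lies inside the gene model. These counts thus rest in part on starts inside genes, whose use in these cells was not tested. A match to these letters is a description and does not show that a factor binds there.

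Of the 51 tested members, 22 were called (43.1%, against 40.8% of all genes), with 7 higher (against 19.7%) and 15 lower (against 21.2%) in FHL3 KO. Their median log2 difference was -0.04, against -0.01 over all genes, so the family as a whole was called about as often as other genes. Without WT replicate 1, the library with liver markers, 6 members rose and 12 fell. The calls differed in number among the roles. Of the 28 tested kinesins 11 fell and 2 rose, with a median of -0.21, whereas of the 11 tested tubulins 3 rose and 1 fell, with a median of 0.20. After each library's trend with exon length was removed, 23 members were called (44.5% of all genes), 10 as higher (24%) and 13 as lower (20.6%), and the counts became 5 rises and 9 falls for kinesins and 2 and 1 for tubulins. After removal of the trends with length and GC content 24 members were called (42.7% of all genes), 9 higher (22.4%) and 15 lower (20.3%). For 31 of the 51 members the ranges of WT and FHL3 KO were separate, against 53.8% of all genes.

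**Figure D1:**
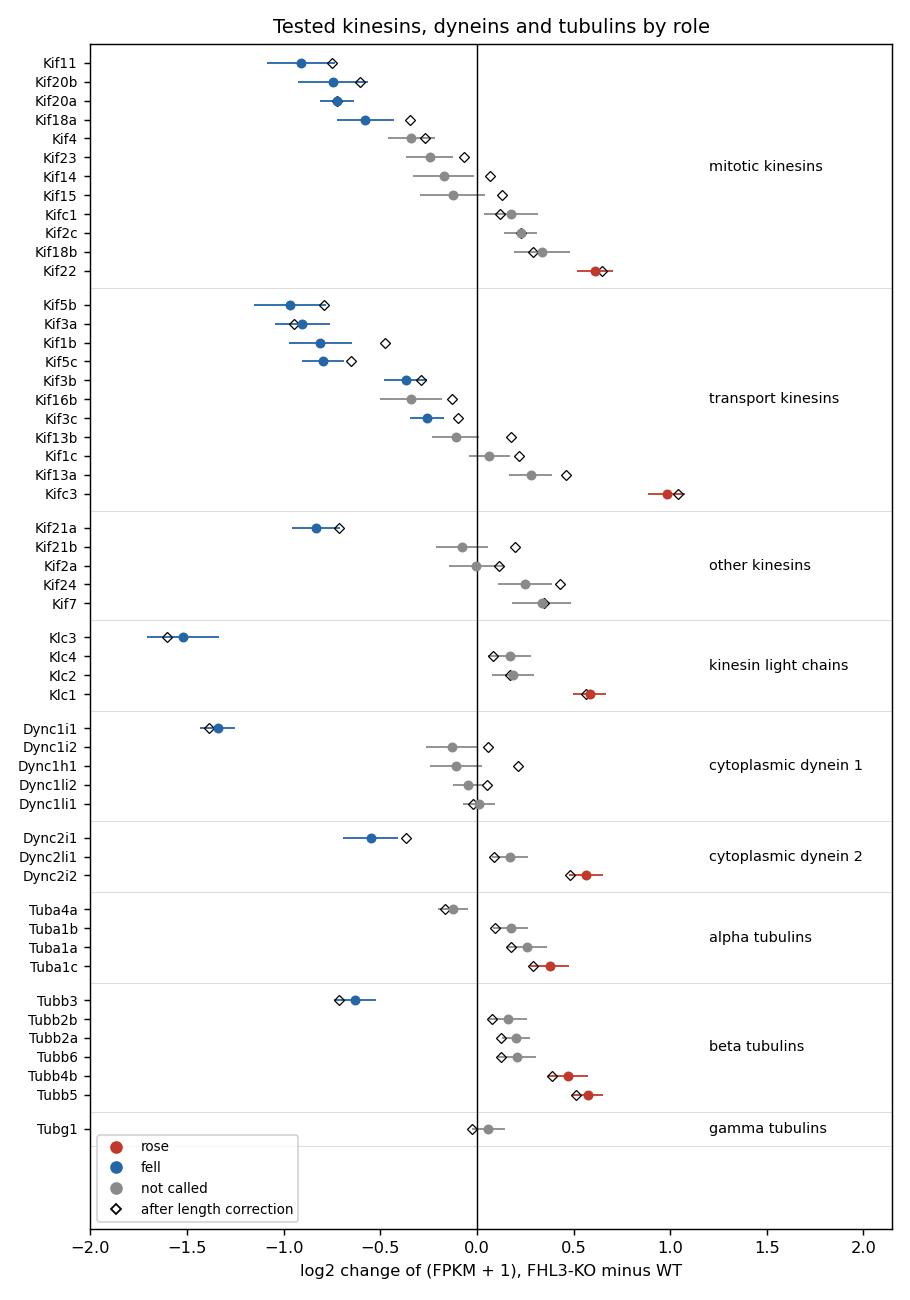
Log2 difference in FPKM + 1 (FHL3 KO minus WT, x axis) for the 51 tested members, grouped by role and ordered by difference within each role. Circles show the estimate with bars of 1 SE, coloured by the limma call, and open diamonds show the estimate after length correction; 11 of the 28 kinesins are marked as lower, and Klc3 and Dync1i1 lie farthest to the left at -1.52 and -1.34.

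Kinesin-1 is built of 2 heavy chains, which are the motors, and light chains, which bind cargo. Its heavy chains were lower and its main light chain higher in FHL3 KO. Kif5b (chromosome 18), the ubiquitous heavy chain and the kinesin with the highest WT level, measured 73.4, 56.9 and 48.5 FPKM in WT and 28.0, 36.9 and 24.9 FPKM in FHL3 KO. Every WT library lay above every FHL3 KO library, and the mean fell from 59.6 ± 12.6 to 30.0 ± 6.23 FPKM (SD, n = 3), a log2 difference of -0.97 (SE 0.18, limma adjusted p = 0.00573). It was -0.79 after length correction and -0.53 after correction for length and GC content, and was called in both. Kif5c, a heavy chain best known from neurons, measured 4.91, 4.63 and 4.10 FPKM in WT and 2.27, 2.29 and 2.01 FPKM in FHL3 KO. The groups were apart with little spread within each, and the log2 difference was -0.80 (SE 0.11, limma adjusted p = 0.0016). Kif5a, the other neuronal heavy chain, was at 0.143 FPKM or less in every library and was not tested.

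Klc1, the main light chain and the most abundant kinesin subunit, measured 121, 119 and 123 FPKM in WT and 172, 174 and 201 FPKM in FHL3 KO. The 3 FHL3 KO libraries all lay above WT, and Klc1 rose by 0.58 on the log2 scale (SE 0.09, limma adjusted p = 0.00217). Klc3 measured 3.74, 5.14 and 6.69 FPKM in WT and 0.909, 1.23 and 1.22 FPKM in FHL3 KO. It showed the largest difference of any tested member, at -1.52 (SE 0.19, limma adjusted p = 0.000983), and its WT mean was 4.64-fold the FHL3 KO mean. Klc2 (26.5 ± 2.75 against 30.3 ± 3.02 FPKM, limma adjusted p = 0.205) and Klc4 (11.0 ± 1.25 against 12.5 ± 1.17 FPKM, limma adjusted p = 0.265) did not pass the test and had overlapping groups.

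The heavy chains Kif5b and Kif5c and the light chain Klc1 therefore moved apart, while the light chain Klc3 fell. After correction for length and GC content Klc1 still rose, by 0.42 (limma adjusted p = 0.00272). The ratios and shares that follow use uncorrected FPKM. Summed light chains per summed Kif5 heavy chain stood at 2.02, 2.65 and 3.22 in WT and at 7.10, 5.45 and 9.23 in FHL3 KO. The lowest FHL3 KO library thus lay above the highest WT library, and no test was run on this ratio, which was chosen after its parts were seen. Kif5b and Kif5c kept a similar ratio to each other, 13.02 ± 1.68 in WT and 13.6 ± 2.16 in FHL3 KO. Kif5b made up 18.4% ± 2.24 of the summed kinesin FPKM in WT and 11.3% ± 2.08 in FHL3 KO.

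**Figure D2:**
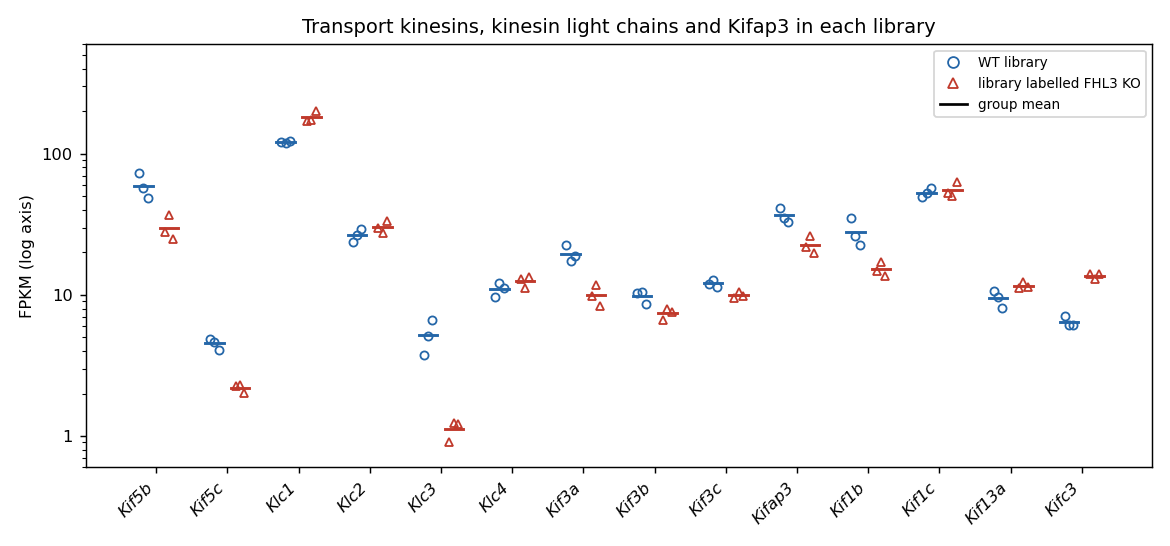
FPKM on a log axis for transport kinesins, kinesin light chains and the kinesin-2 accessory subunit Kifap3 in each library, with WT as circles, FHL3 KO as triangles and group means as lines. Kif5b, Kif5c, Klc3 and Kif3a are lower in all 3 FHL3 KO libraries, Klc1 and Kifc3 are higher in all 3, and Kif1c overlaps at means of 52.9 and 55.6 FPKM.

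Kinesin-2 is a trimer of Kif3a, Kif3b or Kif3c, and the accessory subunit KAP3 encoded by Kifap3, and it serves intraflagellar transport in cilia as well as vesicle transport. All 4 subunit genes were lower. Kif3a measured 22.4, 17.5 and 18.7 FPKM in WT and 9.88, 11.8 and 8.35 FPKM in FHL3 KO. Its groups were well apart, with a log2 difference of -0.90 (SE 0.14, limma adjusted p = 0.00274). Kifap3, which is not a member by name, measured 41.5, 35.3 and 32.9 FPKM in WT and 21.9, 26.4 and 19.7 FPKM in FHL3 KO and fell by 0.67 (SE 0.13, limma adjusted p = 0.00616).

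Kif3b and Kif3c, the alternative partners of Kif3a, moved less and closer to the threshold. Kif3b measured 10.3, 10.5 and 8.62 FPKM in WT and 6.67, 7.91 and 7.57 FPKM in FHL3 KO, a log2 difference of -0.37 (SE 0.11, limma adjusted p = 0.0328). Kif3c measured 12.04, 12.8 and 11.4 FPKM in WT and 9.53, 10.5 and 9.76 FPKM in FHL3 KO, a log2 difference of -0.26 (SE 0.09, limma adjusted p = 0.0483). The groups did not overlap for either gene. The Kif3c call was lost after length correction (-0.10, limma adjusted p = 0.32). Leaving out WT replicate 1 or 2, or FHL3 KO replicate 1 or 3, ended both calls, with limma adjusted p from 0.0664 to 0.125 for Kif3b and from 0.0962 to 0.18 for Kif3c, and leaving out WT replicate 3 also ended that of Kif3c (0.0631). Kif3a stood at 2.00 ± 0.293 times Kif3b in WT and at 1.36 ± 0.223 times in FHL3 KO.

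Among the transport kinesins, those of the kinesin-3 family carry vesicles and mitochondria over long distances. Of these, 1 of 5 tested fell and the others were not called, while 40.8% of all genes were called. Kif1b, known for mitochondria and synaptic vesicle precursors, measured 34.8, 26.1 and 22.4 FPKM in WT and 14.8, 17.2 and 13.6 FPKM in FHL3 KO. The groups were apart although WT spread widely, and the log2 difference was -0.81 (SE 0.16, limma adjusted p = 0.00713). It shrank to -0.47 after length correction (limma adjusted p = 0.00304). Its relative Kif1c, the transport kinesin with the highest mean over all libraries, measured 49.02, 52.6 and 57.2 FPKM in WT and 53.1, 50.1 and 63.5 FPKM in FHL3 KO. These ranges overlapped (log2 difference 0.06, SE 0.11, limma adjusted p = 0.656), and Kif1c took 16.6% ± 2.67 of the summed kinesin FPKM in WT and 21.1% ± 2.73 in FHL3 KO.

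Kif13a, a carrier of endosomes, had means of 9.44 and 11.6 FPKM and did not pass the test (limma adjusted p = 0.0837), but was called higher after length correction (0.46, limma adjusted p = 0.00298). Kif13b and Kif16b had log2 differences of -0.11 and -0.34 and were not called. Kifc3, a minus-end directed kinesin of the C-terminal motor class, was the only transport kinesin that rose in the fit without length correction. It measured 7.13, 6.10 and 6.09 FPKM in WT and 14.0, 12.96 and 14.0 FPKM in FHL3 KO, 2.12-fold higher by the means and 0.98 on the log2 scale (SE 0.10, limma adjusted p = 0.000392). Kifc3 lies on chromosome 8, where 51.48% of 676 tested genes rose, against 17.84% of genes on the other chromosomes, and their median log2 difference was 0.37 against -0.02. The part of that shift in the Kifc3 value was not tested.

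Kinesin adaptors link these motors to cargo. Of the 13 tested in a list of 15, 5 fell and 1 rose (46.15% called, against 40.8% of all genes), and the median log2 difference was -0.13 against -0.01. Those that fell included Spag9, a JNK-interacting scaffold for kinesin-1 and dynein, which went from 41.1 ± 7.70 to 14.4 ± 3.29 FPKM (-1.46, SE 0.18, limma adjusted p = 0.00107). Kidins220 went from 51.9 ± 9.54 to 25.3 ± 2.33 FPKM and the kinesin-binding membrane protein Ktn1 from 30.0 ± 8.25 to 15.0 ± 2.71 FPKM, both also called. The Ktn1 difference of -0.93 shrank to -0.46 after correction for length and GC content. After length correction 3 adaptors rose and 5 fell. Of 9 tested nuclear positioning genes 4 fell and 0 rose, but 1 fell and 3 rose after length correction. In both fits 44.44% of these genes were called, against 40.8% and 44.5% of all genes.

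Of the 12 tested mitotic kinesins 4 fell and 1 rose, and 7 were not called, so 41.67% were called against 40.8% of all genes. Their median log2 difference was -0.21. Kif20a (chromosome 18), a kinesin of cytokinesis, had the highest WT level in this class, at 29.8, 27.4 and 26.6 FPKM in WT and 15.2, 17.1 and 17.3 FPKM in FHL3 KO. Its groups were clearly apart (-0.73, SE 0.09, limma adjusted p = 0.000959), and the value after length correction was the same. Kif11, the motor that pushes spindle poles apart, measured 9.46, 7.05 and 6.29 FPKM in WT and 3.52, 4.35 and 2.81 FPKM in FHL3 KO. Kif11 was lower in all 3 FHL3 KO libraries (-0.91, SE 0.18, limma adjusted p = 0.00615), and its difference shrank to -0.52 after correction for length and GC content (0.00533).

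The other 2 falls were in low genes and depended on the processing. Kif20b measured 3.77, 2.56 and 2.04 FPKM in WT and 1.29, 1.39 and 1.0 FPKM in FHL3 KO (-0.75, SE 0.18, limma adjusted p = 0.0148). Kif18a, which limits chromosome oscillation at metaphase, measured 1.86, 1.11 and 1.66 FPKM in WT and 0.656, 0.705 and 0.715 FPKM in FHL3 KO (-0.58, SE 0.15, limma adjusted p = 0.0176). Neither gene's groups overlapped, but Kif18a passed the filter only through its WT mean (1.55 FPKM, against 0.692 FPKM in FHL3 KO). The Kif18a call was lost after length correction (-0.35, limma adjusted p = 0.0951), and both calls were lost after correction for length and GC content (-0.29 and -0.05, limma adjusted p = 0.093 and 0.835). Kif18a also lost its call without FHL3 KO replicate 1 (limma adjusted p = 0.055) or WT replicate 3 (0.0527). Kif22, a chromosome arm motor, was the mitotic kinesin that rose. It measured 9.34, 9.68 and 10.2 FPKM in WT and 15.4, 14.1 and 16.8 FPKM in FHL3 KO, higher in 3 of 3 libraries by 0.61 (SE 0.09, limma adjusted p = 0.00247).

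The 7 uncalled mitotic kinesins were Kif4, Kif14, Kif15, Kif18b, Kif23, Kif2c and Kifc1, with log2 differences from -0.34 (Kif4) to 0.33 (Kif18b). Kif2c, a microtubule depolymerase of the centromere, went from 10.5 ± 0.456 to 12.4 ± 0.629 FPKM and missed the threshold (limma adjusted p = 0.0661), but passed it after length correction (0.0493) and under quantile normalization (0.0442). Kif18b was called higher under quantile normalization (limma adjusted p = 0.0345) and without FHL3 KO replicate 1 (0.0265), and Kif4 was called lower after correction for length and GC content (0.0262), with median-of-ratios scaling (0.0484) and without FHL3 KO replicate 2 (0.0288). Kif2b was listed at 0 in all libraries.

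**Figure D3:**
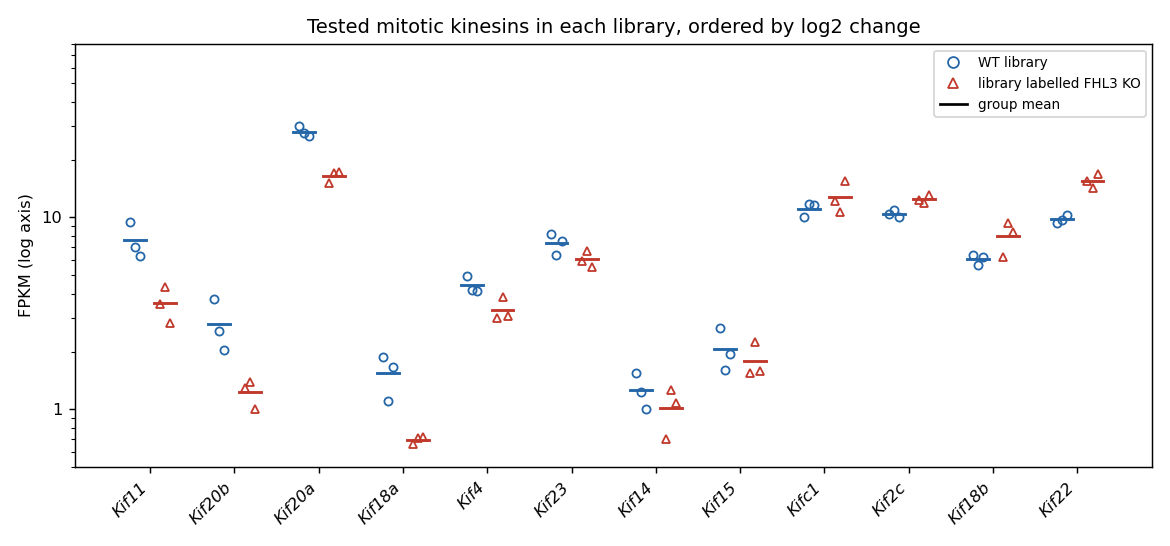
FPKM on a log axis for the 12 tested mitotic kinesins in each library, ordered from the lowest to the highest log2 difference, with WT as circles, FHL3 KO as triangles and group means as lines. Kif11, Kif20b, Kif20a and Kif18a are lower in all FHL3 KO libraries, Kif22 is higher in all of them at 14.1 to 16.8 FPKM, and Kif14 and Kif15 overlap.

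Mitotic regulators, which mark cycling cells, moved in both directions as well. Of 28 tested, 8 rose and 11 fell (67.86% called, against 40.8% of all genes), with a median log2 difference of -0.08. The lowest p-values among the falls were those of Ndc80, a kinetochore protein, at 8.14 ± 1.10 and 4.03 ± 0.272 FPKM (limma adjusted p = 0.00158) and Hmmr, a spindle protein, at 9.67 ± 1.30 and 4.61 ± 0.761 FPKM (limma adjusted p = 0.00212). Those among the rises were Ccnb1, the mitotic cyclin, at 18.5 ± 1.15 and 29.8 ± 3.14 FPKM (limma adjusted p = 0.00239) and Aurkb, the chromosomal passenger kinase, at 11.2 ± 0.652 and 17.0 ± 1.05 FPKM (limma adjusted p = 0.0028). After correction for length and GC content Ndc80 and Hmmr stood at -0.50 and -0.59, down from -0.86 and -0.93, and were still called. The summed level of the list was 434 to 476 FPKM in WT and 439 to 470 FPKM in FHL3 KO, which overlap.

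Mitotic and transport kinesins were compared directly in each library. The mean log2(FPKM + 1) of the 12 mitotic kinesins minus that of the 11 transport kinesins was -1.03, -1.08 and -0.93 in WT and -0.96, -0.95 and -0.87 in FHL3 KO. The ranges of WT and FHL3 KO overlapped, also after length correction. After correction for length and GC content they were separate, at -1.06, -1.11 and -0.96 in WT and -0.93, -0.93 and -0.80 in FHL3 KO, with the mitotic kinesins relatively higher in FHL3 KO. Uncorrected, both class means were lower in FHL3 KO, at 2.66 to 2.86 in WT against 2.45 to 2.60 for mitotic kinesins and at 3.61 to 3.89 against 3.39 to 3.55 for transport kinesins. With both corrections the mitotic means overlapped (2.60 to 2.70 and 2.56 to 2.65), and the transport means stayed apart (3.65 to 3.76 and 3.45 to 3.52). In the fit without correction 1 of the 11 transport kinesins rose and 6 fell, with a median of -0.34. Thus 63.64% were called, against 41.67% of the mitotic kinesins and 40.8% of all genes. After length correction 2 mitotic kinesins rose and 3 fell, with a median near 0, and 2 transport kinesins rose and 5 fell, with a median of -0.13. The shares of the classes stayed at 41.67% and 63.64%, against 44.5% of all genes.

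Of the other kinesins, 5 of 14 were tested and 1 fell (20% called, against 40.8% of all genes). Kif21a, a regulator of microtubule growth at the cell cortex, measured 3.44, 3.24 and 2.64 FPKM in WT and 1.14, 1.44 and 1.32 FPKM in FHL3 KO, with groups well apart (-0.83, SE 0.13, limma adjusted p = 0.00231). Kif2a, a depolymerase and the highest of this class, measured 8.07, 6.51 and 5.60 FPKM in WT and 5.91, 7.44 and 6.67 FPKM in FHL3 KO. Its ranges overlapped (limma adjusted p = 0.988), and it was called higher only after correction for length and GC content (0.45, limma adjusted p = 0.00999). Kif7, a Hedgehog pathway kinesin of the cilium, Kif21b and Kif24 were not called, with log2 differences of 0.33, -0.08 and 0.25. Kif24 was called higher after length correction (0.43, limma adjusted p = 0.013) and under quantile normalization (0.0285), and Kif7 under quantile normalization (0.0354) and without FHL3 KO replicate 1 (0.0438).

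Cytoplasmic dynein 1 carries a heavy chain motor, intermediate chains that bind dynactin, light intermediate chains that bind adaptors, and small light chains. The heavy and light intermediate chains did not pass the test, and 1 intermediate chain fell strongly. Dync1i1, the intermediate chain best known from neurons, measured 64.4, 59.4 and 59.1 FPKM in WT and 21.4, 25.9 and 23.3 FPKM in FHL3 KO. The gap between the groups was far wider than the spread within them, and the WT mean was 2.59-fold the FHL3 KO mean (-1.34, SE 0.09, limma adjusted p = 9.71e-05). Dync1i2, the ubiquitous intermediate chain and the highest of the 5 tested Dync1 genes, measured 92.2, 79.3 and 70.9 FPKM in WT and 73.0, 85.0 and 63.7 FPKM in FHL3 KO. Its ranges overlapped (-0.13, SE 0.13, limma adjusted p = 0.468), and it was called higher after correction for length and GC content (0.32, 0.00518).

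Dync1i1 thus made up 41.1%, 42.8% and 45.5% of the intermediate chain FPKM in WT and 22.6%, 23.3% and 26.8% in FHL3 KO, a description of the same values with no test. Dync1h1, the heavy chain, measured 39.6, 31.5 and 28.3 FPKM in WT and 28.2, 34.2 and 29.0 FPKM in FHL3 KO and overlapped (-0.11, SE 0.14, limma adjusted p = 0.543). It was called higher after length correction (0.21, limma adjusted p = 0.0361), and its gene model is among the longest here. Dync1li1 and Dync1li2 had mean levels of 36.0 and 39.3 FPKM in WT and 36.2 and 38.1 FPKM in FHL3 KO (limma adjusted p = 0.924 and 0.67). Dync1li2 lies on chromosome 8, where 51.48% of tested genes rose, and the part of that shift in its value was not tested.

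Dynein 2 drives return transport in cilia. Its intermediate chain Dync2i2 measured 11.5, 11.2 and 12.3 FPKM in WT and 18.9, 17.8 and 16.5 FPKM in FHL3 KO and rose by 0.56 (SE 0.09, limma adjusted p = 0.00251), or by 0.34 after correction for length and GC content. The other intermediate chain, Dync2i1, measured 7.02, 5.72 and 5.37 FPKM in WT and 3.51, 4.62 and 3.31 FPKM in FHL3 KO and fell by 0.55 (SE 0.14, limma adjusted p = 0.0194). These 2 chains moved in opposite directions, each with groups that did not overlap. Leaving out WT replicate 1 or 2, or FHL3 KO replicate 1 or 3, took the Dync2i1 adjusted p to between 0.0553 and 0.0678. Dync2li1 had means of 15.2 and 17.3 FPKM (limma adjusted p = 0.169), and the heavy chain Dync2h1 was too low to be tested, at 0.682 ± 0.206 and 0.301 ± 0.0221 FPKM.

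The partners of dynein were mixed. Of 9 dynactin subunits 3 rose (Dctn3, Dctn6 and Actr10) and 0 fell (33.33% called, against 40.8% of all genes), and these were called in 8, 15 and 7 of 15 alternatives. Dctn6 lies on chromosome 8, where 51.48% of tested genes rose, and the part of that shift in its value was not tested. Of 8 tested dynein light chains 3 rose and 2 fell (62.5% called). Among the light chains Dynlt3 went from 67.2 ± 5.94 to 27.2 ± 6.07 FPKM (-1.29, SE 0.15, limma adjusted p = 0.000882) and Dynlrb1 from 184 ± 22.6 to 246 ± 9.0 FPKM (0.42, SE 0.10, limma adjusted p = 0.0152, called in 12 of 15 alternatives). Of 10 tested dynein regulators 4 fell and 0 rose (40% called). They included Pafah1b1, which encodes LIS1, an activator of dynein, at 41.4 ± 5.62 and 24.2 ± 3.61 FPKM (-0.75, SE 0.14, limma adjusted p = 0.00479), and Ndel1, its partner, at 34.3 ± 2.39 and 27.8 ± 1.36 FPKM (limma adjusted p = 0.0259, called in 11 of 15 alternatives). The Pafah1b1 difference shrank to -0.26 after correction for length and GC content and was still called. The fourth, Hook3, lost its call after length correction (-0.18, limma adjusted p = 0.162).

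Tubulin levels were far above those of the motors. Alpha tubulins summed to 2531 to 2678 FPKM in WT and 2972 to 3184 FPKM in FHL3 KO, and beta tubulins to 1286 to 1412 and 1557 to 1644 FPKM. Both sums were higher in every FHL3 KO library, and the ratio of alpha to beta was 1.94 ± 0.0368 in WT and 1.93 ± 0.0975 in FHL3 KO. The FPKM sum of all rows was also higher in every FHL3 KO library. Tubulins made up 0.887% ± 0.0172 of that sum in WT and 0.967% ± 0.0277 in FHL3 KO. Of the 10 tested alpha and beta isotypes, 3 rose and 1 fell. With Tubg1, which was not called, 36.36% of the tested tubulins were called, against 40.8% of all genes.

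Beta tubulin isotypes differ mainly at their C-terminal tails, where motors and modifying enzymes bind. The end of the coding sequence is shown for 5 of them, since it separates the isotype that fell (Tubb3) from those that rose (Tubb5 and Tubb4b) and from the near-identical pair Tubb2a and Tubb2b. The sequences come from GENCODE M21 transcripts (GRCm38), run 5′ to 3′ on the coding strand and end with the stop codon. Lower case marks the run shared by all 5 and capitals the part after it. The genes lie at chr8:123411424-123422015 (Tubb3, plus strand), chr17:35833921-35838306 (Tubb5, minus strand), chr2:25222160-25224702 (Tubb4b, minus strand), chr13:34074274-34078007 (Tubb2a, minus strand) and chr13:34126748-34130466 (Tubb2b, minus strand).
Tubb3: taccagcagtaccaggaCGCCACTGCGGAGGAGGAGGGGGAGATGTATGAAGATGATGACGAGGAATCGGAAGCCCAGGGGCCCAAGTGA
Tubb5: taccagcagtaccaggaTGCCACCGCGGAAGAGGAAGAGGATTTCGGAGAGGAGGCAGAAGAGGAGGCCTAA
Tubb4b: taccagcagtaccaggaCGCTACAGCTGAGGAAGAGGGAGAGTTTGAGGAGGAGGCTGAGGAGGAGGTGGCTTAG
Tubb2a: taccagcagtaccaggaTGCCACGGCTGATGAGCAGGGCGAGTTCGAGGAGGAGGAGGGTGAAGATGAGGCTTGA
Tubb2b: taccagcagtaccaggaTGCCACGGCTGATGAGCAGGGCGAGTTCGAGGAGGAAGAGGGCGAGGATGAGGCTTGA

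After the shared run the coding end was 73 bases long in Tubb3, 55 in Tubb5 and 58 in Tubb4b, Tubb2a and Tubb2b. Over the whole transcript, 45.61% of the 50-base windows of Tubb2a were found unchanged in Tubb2b, whereas 0 windows of Tubb3 and 0.115% of those of Tubb5 occurred in any other gene. Of Tubb4b windows 50.87% did, mostly in the pseudogene Tubb4b-ps1. Reads of Tubb2a, Tubb2b and Tubb4b could thus be split or lost in counting, while those of Tubb3 and Tubb5 could hardly be.

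Tubb5, the most abundant beta tubulin in FHL3 KO, measured 294, 286 and 299.5 FPKM in WT and 434, 454 and 421 FPKM in FHL3 KO. The groups lay far apart, and Tubb5 rose by 0.57 (SE 0.08, limma adjusted p = 0.00166), a call lost under quantile normalization (0.29, limma adjusted p = 0.058). Tubb4b measured 98.5, 125 and 119 FPKM in WT and 154, 153 and 166 FPKM in FHL3 KO and rose by 0.47 (SE 0.10, limma adjusted p = 0.0105), or by 0.30 after correction for length and GC content. Tubb3, the isotype called neuronal beta tubulin that myoblasts also express, was the beta tubulin that fell. It measured 147, 172 and 179 FPKM in WT and 109, 95.7 and 116 FPKM in FHL3 KO, lower in 3 of 3 libraries (-0.63, SE 0.11, limma adjusted p = 0.00393). Tubb3 lies on chromosome 8, so it fell on the chromosome whose genes were more often higher.

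Tubb6, a beta tubulin that is abundant in immature muscle, measured 287, 317 and 339 FPKM in WT and 358, 344 and 384 FPKM in FHL3 KO. Tubb6 did not overlap but did not pass the test (0.21, SE 0.10, limma adjusted p = 0.122). Tubb2b measured 199, 199 and 213 FPKM in WT and 213, 214 and 258 FPKM in FHL3 KO (0.16, limma adjusted p = 0.228), with 2 FHL3 KO libraries close to the highest WT library. Tubb2a had means of 258 and 297 FPKM (0.20, limma adjusted p = 0.0601).

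Among alpha tubulins only Tuba1c passed the test, at 314, 337 and 348 FPKM in WT and 430.1, 477 and 393 FPKM in FHL3 KO (0.38, SE 0.10, limma adjusted p = 0.0214). All 3 FHL3 KO libraries were higher, but the call was lost after length correction (0.29, limma adjusted p = 0.0521) and without WT replicate 1, WT replicate 2 or FHL3 KO replicate 1 (limma adjusted p = 0.0561, 0.0746 and 0.0689). The difference shrank to 0.18 after correction for length and GC content (limma adjusted p = 0.234), to 0.27 after scaling to the same sum (0.0663) and to 0.04 under quantile normalization (0.837). Tuba1a, the most abundant member of all, measured 1251, 1282 and 1298 FPKM in WT and 1429.6, 1599.6 and 1554 FPKM in FHL3 KO (limma adjusted p = 0.0833). Tuba1b measured 879.5, 911 and 933 FPKM in WT and 1029, 1022 and 1024 FPKM in FHL3 KO (limma adjusted p = 0.16). Neither gene's groups overlapped, and neither passed the test. Of their 50-base windows 72.92% and 73.79% occurred in another gene, and 60.99% of those of Tuba1c, so the split among these 3 genes is uncertain.

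Tuba4a, an alpha tubulin of muscle and platelets whose sequence is nearly free of such sharing (1.11% of windows), measured 86.5, 96.1 and 97.5 FPKM in WT and 83.0, 85.6 and 87.9 FPKM in FHL3 KO and overlapped (-0.12, SE 0.08, limma adjusted p = 0.236). It was called lower after correction for length and GC content (-0.25, limma adjusted p = 0.0187), under quantile normalization (-0.29, 0.0143) and after scaling to the same sum (-0.23, 0.0357). Tuba8, a muscle and brain isotype, was listed at 0.0231, 0 and 0.0496 FPKM in WT and at 0 in the FHL3 KO libraries, and Tuba3a and Tuba3b were listed at 0 throughout. Tubg1, the gamma tubulin that nucleates microtubules, had means of 26.9 ± 1.67 and 28.1 ± 1.86 FPKM (limma adjusted p = 0.609).

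Isotype shares describe the makeup of the tubulin mRNA pool. Tubb5 made up 21.8% of the summed beta tubulin FPKM in WT and 27.5% in FHL3 KO, Tubb4b 8.45% and 9.93%, and Tubb3 12.3% and 6.72%. WT and FHL3 KO were separate in these 3 shares (exact two-sided permutation test, p = 0.1 each, 0.2 after adjustment over 10 isotypes, n = 3 per group), and 0.1 is the smallest p that 3 libraries against 3 allow. The shares of Tubb6 (23.3% and 22.8%), Tubb2a (19.1% and 18.7%) and Tubb2b (15.1% and 14.4%) overlapped. Among alpha tubulins Tuba1a held 48.9% and 49.7% and overlapped, Tuba1b went from 34.8% to 33.4% and Tuba4a from 3.57% to 2.78% without overlap, and Tuba1c from 12.8% to 14.1% with overlap. Tubb5 stood at 1.78 ± 0.191 times Tubb3 in WT and at 4.12 ± 0.569 times in FHL3 KO.

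**Figure D4:**
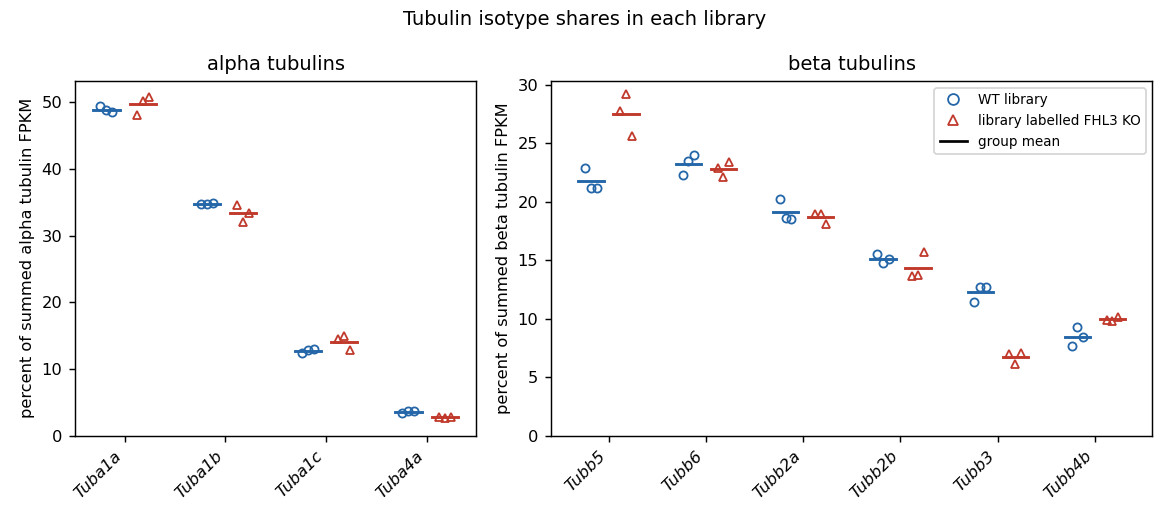
Percent of the summed alpha tubulin FPKM (left) and beta tubulin FPKM (right) taken by each tested isotype in each library, with WT as circles, FHL3 KO as triangles and group means as lines. Tubb5 is higher and Tubb3 lower in all 3 FHL3 KO libraries, at means of 27.5% against 21.8% and 6.72% against 12.3%, while Tuba1a overlaps at 48.9% and 49.7%.

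Genes that fold, nucleate, modify or bind tubulin were examined from lists. Of 16 tubulin folding genes 2 rose (Cct5 and Tbcc) and 1 fell (Cct8), so 18.75% were called against 40.8% of all genes, and these were called in 6, 5 and 10 of 15 alternatives. Of 8 genes of the gamma-tubulin complex 1 rose (Tubgcp3) and 2 fell (Nedd1 and Tubgcp5), so 37.5% were called against 40.8% of all genes. Tubgcp5 lost its call after length correction (-0.30, limma adjusted p = 0.055), and Tubgcp3, on chromosome 8, was called in 8 of 15 alternatives. Nedd1, which targets the complex to the centrosome, went from 12.6 ± 0.977 to 6.63 ± 0.892 FPKM (-0.84, SE 0.12, limma adjusted p = 0.00162), and its difference was -0.53 after correction for length and GC content. Of 17 tested modifying enzymes 3 rose and 2 fell (29.41% called). Atat1, the alpha tubulin acetyltransferase, went from 13.4 ± 0.182 to 18.3 ± 0.547 FPKM (0.43, SE 0.07, limma adjusted p = 0.00407), and Ttll11, a polyglutamylase, from 2.36 ± 0.454 to 4.67 ± 0.547 FPKM (0.76, SE 0.14, limma adjusted p = 0.00466).

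Of 23 tested microtubule-associated and severing proteins 4 rose and 8 fell (52.17% called, against 40.8% of all genes), and 7 rose and 7 fell after length correction. Stmn2, a stathmin that binds free tubulin, measured 7.73, 8.81 and 8.46 FPKM in WT and 86.3, 88.6 and 84.0 FPKM in FHL3 KO, 10.4-fold higher by the means (3.23, SE 0.08, limma adjusted p = 1.68e-06). Its relative Stmn4 went the other way, from 23.3 ± 0.794 to 11.8 ± 1.67 FPKM (limma adjusted p = 0.000758). Map6, a microtubule stabiliser, fell from 19.7 ± 0.487 to 11.8 ± 1.17 FPKM (limma adjusted p = 0.00133), and Map1s rose from 14.0 ± 1.10 to 22.7 ± 2.31 FPKM (limma adjusted p = 0.00284). The 12 neuron markers, among them Stmn2 and Map2, summed to 65.2 to 72.7 FPKM in WT and 137 to 147 FPKM in FHL3 KO, with 2 markers higher and 2 lower among the 6 tested and with Rbfox3 and Elavl4 listed at 0. Without Stmn2 the sums overlapped, at 56.4 to 65.0 FPKM in WT and 51.1 to 63.0 FPKM in FHL3 KO.

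The members differ widely in length, and length moved with the difference between groups. Of the 28 tested kinesins, 18 have gene models of at least 6000 bases of exon, against 0 of the 11 tested tubulins, whose longest is 3701 bases. Over all genes of at least 6000 bases the median log2 difference was -0.17, and over genes of 1500 to 3000 bases it was 0.13. The 22 members in the longest class had a median of -0.21 and the 13 members from 1500 to 3000 bases one of 0.18. Of the 15 members that fell, 10 have models of at least 4500 bases and 5 (Kif3a, Kif20a, Klc3, Dync1i1 and Tubb3) shorter ones, and of the 7 that rose 2 and 5. The part of length in these differences was not tested beyond the corrections. Of the 22 called members, 14 kept their call and direction in every alternative that tested them: Kif1b, Kif3a, Kif5b, Kif5c, Kif11, Kif20a, Kif21a, Kif22, Kifc3, Klc1, Klc3, Dync1i1, Dync2i2 and Tubb3. Kif5c and Kif21a were not tested with the filter at 5 FPKM, which left them out.

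**Figure D5:**
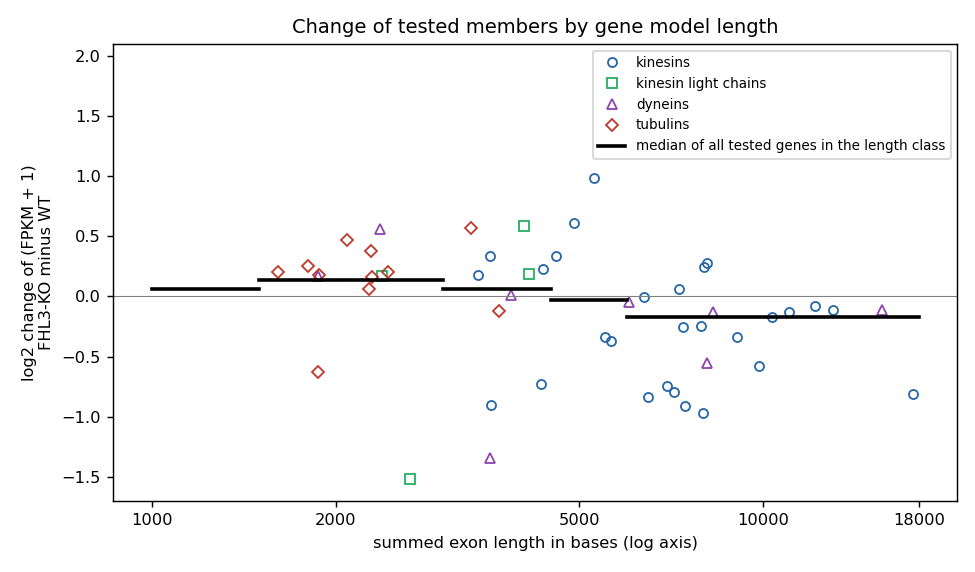
Log2 difference in FPKM + 1 (FHL3 KO minus WT, y axis) of the 51 tested members against summed exon length in bases (x axis, log scale), with symbols for kinesins, light chains, dyneins and tubulins. Black lines give the median of all tested genes in each length class, 0.13 from 1500 to 3000 bases and -0.17 from 6000 bases on; most kinesins lie at the long end and all tubulins below 4500 bases.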

How the data were processed

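Total RNA was sequenced in 6 libraries, 3 per genotype, grouped by the genotype in the labels. The submitters' processing notes name the build mm10 and, without role or order, DESeq2 1.28.1, featureCounts 2.0.1, HISAT2 2.2.1 and Trim Galore 0.6.6. Annotation, strand and treatment of shared reads were not given in the sources used here. A single table deposited by the authors holds decimal values that were taken as FPKM, since the column sums differ and do not have the fixed total of TPM. Read depth is unknown, so no counting interval is given, and an exact 0 can be a failed estimate.

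Rows with repeated gene IDs (7 rows, 3 IDs) were left out. Genes that reached a mean of 1 FPKM in either genotype were fitted as log2(FPKM + 1) with limma 3.58.1 in R 4.3.3 (mean-variance trend, no covariates, two-sided), with Benjamini-Hochberg adjustment over 12528 genes and a threshold of 0.05. This scale understates changes of low genes. Lengths and coordinates came from GENCODE M21 (GRCm38), which holds 99.7% of tested genes and all 72 members. Length correction removed each library's spline trend (5 degrees of freedom) on exon length, alone or together with GC content. The steps were tested on simulated data.

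Members, role classes and partner lists were chosen with earlier results of these data known. Named with values in every library were up to 4 called members per class and direction, the highest member of each class, Kif5b, Dync1h1 and 8 tubulins. Dync2li1 and Tubg1, each the highest of its class, were given by means only. In the partner lists up to 4 called genes with the smallest p were named, mostly by group means. No nuclear positioning gene was named. Kifap3, Kif2c, Kif13a, other uncalled members, complex ratios and some partner genes were picked with their values in view. The alternatives used another pseudocount, filter, scaling or threshold, the replicate block, both corrections and leaving out each library.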

Additional observations from a re-analysis of the deposited data

How the results depend on the processing

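The 22 member calls were recomputed under each alternative, and in 0 of them did a called member change direction. Members called lower ranged from 11 to 16 and higher from 6 to 9 when 1 library was left out. Over all genes 2462 rose and 2650 fell, against 1337 and 1358 at a threshold of 0.01 and 1687 and 2962 after scaling to the same sum. Leaving out 1 library gave 1605 to 2422 rises and 1667 to 2851 falls, the lowest without WT replicate 2 in both cases. Mitotic kinesins that rose numbered 2 after length correction, 3 under quantile normalization and 1 to 2 when 1 library was left out (2 without FHL3 KO replicate 1). Mitotic kinesins that fell numbered 2 with a filter at 5 FPKM, without a filter or at a threshold of 0.01. Transport kinesins that rose numbered 2 after either correction and under quantile normalization. Uncalled members that turned to a call in the other direction were Dync1h1 after length correction (0.21) and, after correction for length and GC content, Dync1i2 (0.32, limma adjusted p = 0.00518) and Kif2a (0.45). The filter removes low genes; the cause of the other moves was not tested.

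Same-numbered libraries did not pair: their deviations from the group means correlated at -0.13, -0.06 and 0.32 for replicates 1 to 3, and WT replicate 1 correlated best with FHL3 KO replicate 2 (0.37). With the replicate block 2265 genes rose and 2494 fell, and 7 members rose and 13 fell. Kif3b (limma adjusted p = 0.0521) and Kif3c (0.0787) were not called with the block.

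The knockout label, which Fhl3 mRNA goes against where it is read as loss of the transcript, limits all directions given here. So do the unknown depth and possible technical spread between libraries.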

Other observations

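Of the 21 members below the filter, 8 had groups that did not overlap. The share over all tested genes was 53.8%, but it covers only genes that passed the filter and is no like measure for these members. In the alternative without a filter 4 of the 8 were called. Over all 27681 genes of that fit 1986 rose and 2146 fell. The 8 were picked for not overlapping, so their calls cannot be set against these counts. Kif19a was tested in 3 alternatives and Kif26b in 2, and both were called in each. The others were tested only without a filter. Kif26b, a kinesin without motility of its own, had 0.242, 0.126 and 0.158 FPKM in the WT libraries, against 0.856, 1.15 and 0.755 FPKM in FHL3 KO. Kif19a, a depolymerase of motile cilia, had 0.215, 0.281 and 0.362 FPKM in the WT libraries, against 0.869, 0.896 and 1.23 FPKM in FHL3 KO. Both were higher in all 3 FHL3 KO libraries and were called without the filter (limma adjusted p = 0.00981 for Kif26b and 0.0148 for Kif19a). Tubb4a, a beta tubulin of oligodendrocytes, had means of 0.358 ± 0.0842 and 0.0825 ± 0.0441 FPKM (limma adjusted p = 0.0202 without the filter), and Kif1a, a neuronal vesicle motor, 0.767 ± 0.0230 and 0.457 ± 0.0794 FPKM (limma adjusted p = 0.0578). Kif28, at 0.130 FPKM or less in all libraries, was also called lower without the filter (limma adjusted p = 0.0115). These genes and the other 3 of the 8 (Dync2h1, Kif26a and Kif27) were singled out after their values were seen. Kif12, Kif2b, Tuba3a and Tuba3b were listed at 0 in all 6 libraries. The 8 multiciliated cell markers summed to 3.19 to 3.70 FPKM in WT and 0.823 to 1.48 FPKM in FHL3 KO, and their part in the Kif19a, Kif27 and Dync2h1 values was not tested.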
